A study of Homo sapiens with 12 samples.

Results

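MHC class I antigen presentation was described through 9 genes, HLA-B, HLA-C, HLA-E, HLA-F, B2M, TAP1, TAP2, TAPBP and NLRC5, which were chosen by symbol. All 15 probes annotated to them were taken, of 47323 probes on the array and among 20046 named genes. The array was the Illumina HumanHT-12 V4 BeadChip, and RNA came from 2 human gastric cancer cell lines, AGS and MKN45. There were 4 groups of 3 arrays: AGS cells given verteporfin (VP), AGS cells given the DMSO vehicle, MKN45 cells given VP, and MKN45 cells given DMSO. VP is a porphyrin photosensitizer used in the eye clinic and known as a disruptor of YAP and TEAD binding. Exposure lasted 36 hours by the sample labels, in RPMI1640 medium, while the study's methods state a longer time and give no VP dose for the arrays. Whether the 3 arrays of each group stem from different cultures is not stated, and p-values therefore measure the spread between arrays, which may be technical. The number of arrays limits the precision.

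Class I molecules show peptides from inside the cell to CD8 T cells. A heavy chain (HLA-B, HLA-C and the less variable HLA-E and HLA-F) folds with the light chain beta-2-microglobulin (B2M). The TAP1 and TAP2 proteins form the pump that carries peptides into the endoplasmic reticulum, and tapasin (TAPBP) holds the empty heavy chain at that pump until a fitting peptide binds. NLRC5 is the transactivator that drives the genes of the pathway. Interferon gamma raises most of them, and gastric epithelial tumours are known to lose or keep class I to varying degrees.

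The members share their place in the genome more than their protein family. HLA-B, HLA-C, HLA-E, HLA-F, TAP1, TAP2 and TAPBP lie on chromosome 6, B2M on chromosome 15 and NLRC5 on chromosome 16. RefSeq promoter windows of GRCh38.p14, from 250 bases before to 50 bases after the gene's start, were at hand for 7 of the 9 members, and those of HLA-E and NLRC5 were not. They were searched on both strands for the core of the interferon-stimulated response element (GAAA, any 2 bases, GAAA), the CCAAT box and TGACG, a core of cyclic AMP response elements. The response element core was in the windows of 5 members (HLA-F, B2M, TAP1, TAP2 and TAPBP), against 3.57% of all 35116 windows in the table. The CCAAT box was in 5 members, against 34.6% of all windows, and TGACG in 4, against 24.6%. A match describes letters in the window and no binding.

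The windows of 5 members are printed 5′ to 3′ in the direction of the gene, since their probes carry the values compared below. Capitals mark the matches to these motifs.
HLA-B (chr6:31357130-31357429, minus strand): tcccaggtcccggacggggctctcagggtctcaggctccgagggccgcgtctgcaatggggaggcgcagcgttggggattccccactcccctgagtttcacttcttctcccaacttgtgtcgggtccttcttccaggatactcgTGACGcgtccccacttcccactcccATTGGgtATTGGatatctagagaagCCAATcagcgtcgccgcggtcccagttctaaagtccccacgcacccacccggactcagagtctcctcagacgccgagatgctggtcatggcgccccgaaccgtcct
HLA-F (chr6:29723184-29723483, plus strand): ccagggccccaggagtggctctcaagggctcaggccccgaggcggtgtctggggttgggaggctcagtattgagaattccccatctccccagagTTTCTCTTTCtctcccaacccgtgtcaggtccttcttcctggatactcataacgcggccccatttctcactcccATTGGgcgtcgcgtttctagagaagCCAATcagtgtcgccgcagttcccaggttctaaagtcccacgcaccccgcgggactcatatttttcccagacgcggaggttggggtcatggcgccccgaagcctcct
B2M (chr15:44711267-44711566, plus strand): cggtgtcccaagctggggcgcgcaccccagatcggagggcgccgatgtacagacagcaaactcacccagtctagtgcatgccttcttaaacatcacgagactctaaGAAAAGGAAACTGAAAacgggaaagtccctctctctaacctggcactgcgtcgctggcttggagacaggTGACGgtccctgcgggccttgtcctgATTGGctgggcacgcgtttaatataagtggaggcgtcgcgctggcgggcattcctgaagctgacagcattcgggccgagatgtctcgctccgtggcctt
TAP2 (chr6:32838690-32838989, minus strand): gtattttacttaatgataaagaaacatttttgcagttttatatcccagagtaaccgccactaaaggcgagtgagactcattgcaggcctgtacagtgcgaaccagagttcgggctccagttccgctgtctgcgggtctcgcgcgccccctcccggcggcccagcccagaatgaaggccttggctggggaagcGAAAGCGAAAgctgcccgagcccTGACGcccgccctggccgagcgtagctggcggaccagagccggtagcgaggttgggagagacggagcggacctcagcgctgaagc
TAPBP (chr6:33314029-33314328, minus strand): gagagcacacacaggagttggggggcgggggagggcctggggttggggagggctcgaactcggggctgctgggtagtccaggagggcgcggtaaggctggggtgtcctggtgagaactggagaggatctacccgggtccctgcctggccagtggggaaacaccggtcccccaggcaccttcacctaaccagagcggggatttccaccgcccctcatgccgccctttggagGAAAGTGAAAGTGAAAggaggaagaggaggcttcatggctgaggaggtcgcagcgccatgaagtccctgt
In HLA-B, TGACG starts at position -106 from the gene's start and is followed by ATTGG, the reverse complement of the CCAAT box, at -81 and -74 and by CCAAT at -56. The heavy chain gene HLA-F has the ATTGG at -82 and the CCAAT at -57, holds 1 response element core at -156 and has no TGACG. In B2M 2 response element cores overlap at -144 and -138, and in TAPBP 2 overlap at -20 and -14. TAP2 has 1 core at -58 and TGACG at -35.

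The arrays are held in 2 tables, which did not give the same picture. The first holds the signals, and every level and change below comes from it, after background correction, quantile normalization over the 12 arrays and log2 transformation, unless the value table is named. The second, the value table, holds log2 values that the authors had quantile normalized for each line alone. Across the 16021 probes tested, the VP change in the signals correlated with that in the value table at -0.076 in AGS and -0.11 in MKN45, and probes are not independent replicates. The highest rank correlation of any signal column with any value column was 0.839, and 1 of 12 value columns had its highest at the signal column of its own name. In the signals, the group means of the lines correlated at 0.97 under VP and 0.982 under DMSO, above the 0.941 of VP with DMSO in AGS and the 0.957 in MKN45. In the value table the order was turned: 0.991 for VP with DMSO in AGS and 0.994 in MKN45, against 0.951 between the lines under VP and 0.941 under DMSO. Each group of the signals, MKN45 included, correlated more with both AGS groups of the value table (0.895 to 0.944) than with either of its MKN45 groups (0.858 to 0.91). Column names alone tie the columns of both tables to the samples. No value of the signals can therefore be given with an independent check of its label, and the value table is set beside each member. The study's methods name another deposit for its arrays than the one that holds these tables, and whether they describe these tables was not tested.

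The arrays resembled each other in the number of probes detected, and those of MKN45 with DMSO were uneven in brightness. The median signal per array was 98.4 to 137 in that group, against 120 to 126 in MKN45 with VP. In AGS it was 117 to 129 with VP and 112 to 123 with DMSO. Before normalization, replicate 2 of MKN45 with DMSO had 1700 for HLA-E, against 898.6 and 859.9 in replicates 1 and 3. The number of probes with a detection p-value under 0.01 was 14523 to 16571, over all groups. Arrays of a group correlated at 0.987 to 0.994. The epithelial markers EPCAM, KRT8, KRT18 and KRT19 were detected in all 4 groups, 4 of 4. Of 5 leukocyte markers LYZ alone, which gastric epithelium also makes, was detected throughout a group. The summed level of the leukocyte list was 11300 to 11600 in AGS with VP against 9640 to 10500 with DMSO, and 2000 to 2370 in MKN45 with VP against 1960 to 2380 with DMSO. PTPRC, CD3E, CD14 and CD53 were not detected in a whole group, nor were any of 5 fibroblast or 3 endothelial markers in the signals. The part of LYZ-expressing or other cells in the results was not tested.

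In the signals VP went with more class I heavy chain RNA, most of all in AGS, whereas the value table gave the opposite direction for the same genes. HLA-B rose 2.61-fold in AGS, HLA-F 1.57-fold and HLA-E 1.51-fold, and TAP2 rose 1.81-fold by its brighter probe, while B2M, TAP1 and TAPBP did not pass the test. In MKN45 HLA-E alone passed, with a 1.36-fold rise. Counted by the brightest detected probe of each gene, 4 of the 7 members tested were called higher in AGS and 1 of 7 in MKN45. TAP2 is among the 4, although its other probe was called lower in AGS (log2 change -0.66, adjusted p = 0.00025), where no VP array was well above background. Of all probes tested, 24.2% were called higher in AGS and 21.1% in MKN45, with 51.6% called in either direction in AGS and 42% in MKN45, so 1 of 7 in MKN45 was no more than the share of the array. The median change of the 7 members was 0.59 in AGS and 0.133 in MKN45 on the log2 scale, beside -0.032 and -0.023 over all probes in the same order of lines. No member was called lower by its brightest probe in either line with limma, against 27.5% of all probes in AGS and 20.9% in MKN45, with 0 at an unadjusted p under 0.05 and 0 by the random variance test and the test that the methods name. Shifting medians instead of matching quantiles moved the split of all calls in AGS to 71.8% higher, against 46.8% with quantiles, and in MKN45 to 85% against 50.3%. It moved the median of all probes tested to 0.151 in AGS and 0.247 in MKN45, and HLA-B then stood 1.40 and 0.38 above that median in AGS and MKN45, and HLA-E 0.59 and 0.51.

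**Figure D1:**
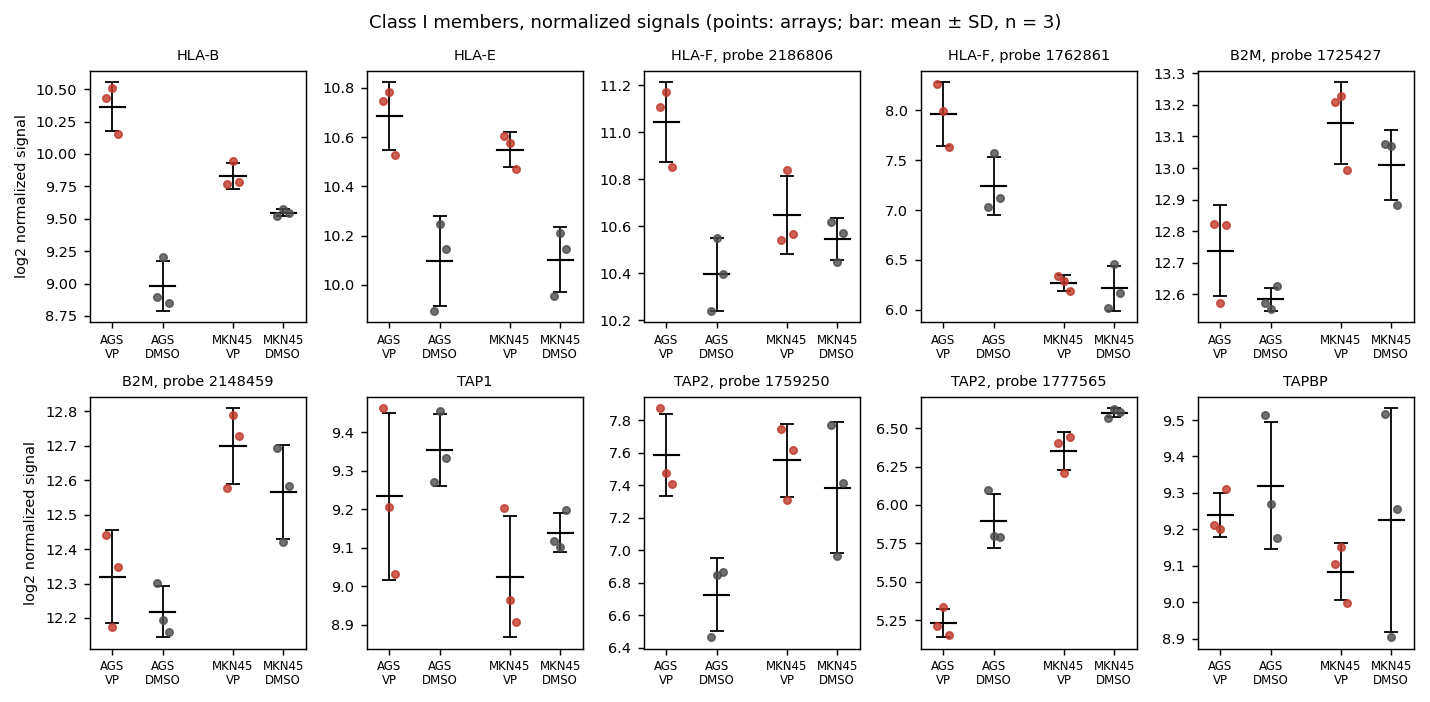
Log2 normalized signals of the 10 member probes tested, by group (red: VP; grey: DMSO; points: arrays; bars: mean ± SD, n = 3), with a vertical axis of its own for each probe. HLA-B, HLA-E, both HLA-F probes and the brighter TAP2 probe have all 3 AGS VP arrays above the 3 AGS DMSO arrays.

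HLA-B encodes a classical heavy chain that presents peptides to CD8 T cells. Its 1 probe (ILMN_1778401) had deposited signals of 1279, 1711 and 1230 in AGS with VP, against 489.6, 520.5 and 495.2 with DMSO. The arrays did not overlap, and the lowest VP array had more than any DMSO array. After normalization the level was 10.37 ± 0.19 with VP and 8.98 ± 0.19 with DMSO (log2, SD, n = 3), a rise of 1.38 (SE 0.12, adjusted p = 1.39e-06), or 2.61-fold with a 95% interval of 2.17 to 3.13. In MKN45 the deposited signals were 1183, 1357 and 1155 with VP, against 684.3, 1104 and 585.4 with DMSO. These arrays did not overlap either, and the normalized levels were 9.83 ± 0.10 with VP and 9.55 ± 0.03 with DMSO. The difference of 0.28 (SE 0.12) had an adjusted p of 0.0786 and an interval of 1.01 to 1.46-fold. Of all probes, 57.9% had groups that did not overlap in AGS and 52.3% in MKN45.

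The rise of HLA-B was larger in AGS than in MKN45. The difference of the changes was 1.10 on the log2 scale (SE 0.17, adjusted p = 0.00289 in limma's interaction test), and 9.04% of all probes passed that test in either direction. HLA-B was the only member probe of the 10 to pass it. Under DMSO the level of HLA-B was lower in AGS than in MKN45 by a log2 difference of -0.56 (SE 0.12, adjusted p = 0.0075), and 15.2% of all probes differed between the lines under DMSO. Under VP the order of the means was turned, with 10.37 in AGS and 9.83 in MKN45.

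HLA-E encodes the heavy chain that shows leader peptides of other class I molecules to the NKG2 receptors of natural killer cells. It was the only member called higher in both lines. AGS arrays had 10.75, 10.78 and 10.53 with VP, against 9.89, 10.25 and 10.15 with DMSO (log2, probe ILMN_1765258). MKN45 arrays had 10.61, 10.58 and 10.47 with VP, against 9.96, 10.21 and 10.14 with DMSO. In each line all VP arrays lay above all DMSO arrays. The change was 0.59 in AGS (SE 0.12, adjusted p = 0.00105) and 0.45 in MKN45 (SE 0.12, adjusted p = 0.00883). The changes differed by 0.14 with an interval of -0.22 to 0.51 (adjusted p = 0.622). Under DMSO the lines differed by -0.01, with an interval of -0.26 to 0.25.

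Over the 12 arrays the genes whose levels ran most like HLA-E were GSTK1 (r = 0.971), BUD31 (r = 0.969) and DNAJC4 (r = 0.963), of 9689 other genes ranked. GSTK1 encodes a glutathione transferase and BUD31 a splicing factor. The 12 arrays fall into VP and DMSO sets, so a VP change like that of HLA-E is built into this choice of genes. The 3 genes changed by 0.69, 0.65 and 0.59 in AGS and by 0.49, 0.44 and 0.66 in MKN45. None of them is in the class I lists used here.

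HLA-F encodes a heavy chain that reaches the surface of activated cells in an open form and binds receptors of natural killer cells. Its 2 probes gave the same direction in AGS. The brighter probe (ILMN_2186806) had 11.11, 11.17 and 10.85 with VP, against 10.24, 10.55 and 10.40 with DMSO, a rise of 0.65 (SE 0.12, adjusted p = 0.000749). The other probe (ILMN_1762861) had 8.27, 7.99 and 7.63 with VP, against 7.03, 7.57 and 7.12 with DMSO, a rise of 0.72 (SE 0.18, adjusted p = 0.00405). Neither pair of groups overlapped, although the lowest VP array of the second probe lay close to the highest DMSO array. In MKN45 the groups overlapped for both probes. The brighter had means of 10.65 ± 0.17 with VP and 10.55 ± 0.09 with DMSO (change 0.10, adjusted p = 0.54), and the other 6.27 ± 0.08 with VP and 6.21 ± 0.22 with DMSO (change 0.06, adjusted p = 0.824). The difference between the lines did not pass the test for either probe, with 0.54 (interval 0.17 to 0.92, adjusted p = 0.0708) and 0.66 (interval 0.12 to 1.204, adjusted p = 0.112). Without replicate 3 of AGS with VP both passed, with 0.64 (adjusted p = 0.0399) and 0.83 (adjusted p = 0.0471).

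The 2 HLA-F probes ranked the lines differently under DMSO. The second probe was higher in AGS by 1.02 (SE 0.18, adjusted p = 0.00162), with means of 7.24 ± 0.29 in AGS and 6.21 ± 0.22 in MKN45. The brighter probe had 10.40 ± 0.15 in AGS and 10.55 ± 0.09 in MKN45, a difference of -0.15 with an interval of -0.42 to 0.12 (adjusted p = 0.469). Heavy chain genes are polymorphic and near-identical over long stretches, so a probe of HLA-B, HLA-C, HLA-E or HLA-F may read a relative or miss an allele, and its level is uncertain in that sense.

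HLA-C encodes the classical heavy chain that killer cell immunoglobulin-like receptors read. Neither of its probes was well above background on any of the 12 arrays, with detection p-values of 0.013 to 0.169 for ILMN_1721113 and of 0.395 to 0.999 for ILMN_2150787. Both were left out of the tests. The deposited signals of the first were 132.3, 139.5 and 140.7 in AGS with VP, against 111.5, 116.8 and 123.1 with DMSO, and 143.5, 136.1 and 133.2 in MKN45 with VP, against 124.8, 142.8 and 104.4 with DMSO. They lie close to the median signal of the arrays.

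B2M, the light chain that every class I heavy chain needs, did not pass the test in either line by either probe. The brighter probe (ILMN_1725427) had 12.82, 12.57 and 12.82 in AGS with VP, against 12.57, 12.55 and 12.62 with DMSO. In MKN45 it had 13.21, 13.23 and 12.99 with VP, against 13.07, 13.07 and 12.88 with DMSO. The groups overlapped in both lines. The change was 0.15 in AGS (interval -0.08 to 0.39, adjusted p = 0.255) and 0.13 in MKN45 (interval -0.10 to 0.37, adjusted p = 0.346). The other probe (ILMN_2148459) had changes of 0.10 (adjusted p = 0.463) and 0.13 (adjusted p = 0.351) in the same lines. A rise of B2M by more than 1.31-fold in AGS or 1.29-fold in MKN45 lies outside these intervals.

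Under DMSO B2M was lower in AGS than in MKN45. The brighter probe averaged 12.58 ± 0.04 in AGS and 13.01 ± 0.11 in MKN45, a difference of -0.43 (SE 0.11, adjusted p = 0.0176). The call was lost without replicate 2 of AGS with DMSO (-0.41, adjusted p = 0.0509), without replicate 1 of MKN45 with DMSO (-0.39, adjusted p = 0.0593) and without replicate 2 of it (-0.40, adjusted p = 0.0509). The other probe had a difference of -0.35 that stood at the threshold without passing it, and passed it without replicate 2 of MKN45 with DMSO (-0.42, adjusted p = 0.0328).

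The 2 subunits of the peptide pump gave different values. TAP1 had no call, with 9.46, 9.21 and 9.03 in AGS with VP against 9.27, 9.46 and 9.33 with DMSO, and 9.20, 8.96 and 8.91 in MKN45 with VP against 9.12, 9.10 and 9.20 with DMSO (probe ILMN_1751079). The groups overlapped in each line. The change was -0.12 in AGS (interval -0.38 to 0.14, adjusted p = 0.435) and -0.11 in MKN45 (interval -0.38 to 0.15, adjusted p = 0.483), and the median shift gave 0.09 and 0.22, neither of them called.

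TAP2 was read by 2 probes that went opposite ways. The brighter (ILMN_1759250) had 7.87, 7.48 and 7.41 in AGS with VP, against 6.46, 6.85 and 6.87 with DMSO, a rise of 0.86 (SE 0.20, adjusted p = 0.00294, 1.81-fold) with no overlap. In MKN45 it had 7.74, 7.31 and 7.62 with VP, against 7.77, 6.97 and 7.42 with DMSO, where the groups overlapped (change 0.17, adjusted p = 0.524). The other probe (ILMN_1777565) was not well above background on any AGS array with VP, and was on 2 of 3 with DMSO. Its measured means in AGS were 5.23 ± 0.09 with VP and 5.89 ± 0.18 with DMSO, and against the lowest signal well above background the fall was by 0.25 or more on the log2 scale (adjusted p = 0.00025 for the measured difference). The bound takes, on each VP array, the higher of that lowest signal and the probe's own. In MKN45, where it was above background on all 6 arrays, it had 6.41, 6.21 and 6.44 with VP, against 6.57, 6.62 and 6.61 with DMSO. These groups did not overlap, and the difference of -0.25 had an adjusted p of 0.0873. The files do not say which transcripts of TAP2 each probe reads.

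Under DMSO both TAP2 probes were lower in AGS than in MKN45. The brighter averaged 6.73 ± 0.23 in AGS and 7.38 ± 0.40 in MKN45 (difference -0.66, SE 0.20, adjusted p = 0.0418), and the other 5.89 ± 0.18 in AGS and 6.60 ± 0.03 in MKN45 (difference -0.71, SE 0.11, adjusted p = 0.000813). The call of the brighter probe was lost without any 1 of 5 of the 6 arrays: without replicate 1, 2 or 3 of AGS with DMSO (adjusted p = 0.139, 0.0643 and 0.0595) and without replicate 1 or 3 of MKN45 with DMSO (adjusted p = 0.156 and 0.1). The values without them were -0.53, -0.72, -0.73, -0.46 and -0.65 in that order. TAP1 under DMSO had a difference of 0.21 (interval -0.05 to 0.48).

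TAPBP, the tapasin gene, had 3 probes, of which 1 was tested. Probe ILMN_1742450 had 9.21, 9.20 and 9.31 in AGS with VP, against 9.51, 9.27 and 9.18 with DMSO, and 9.10, 9.15 and 8.999 in MKN45 with VP, against 9.52, 8.90 and 9.25 with DMSO. The groups overlapped in both lines, and the spread of the MKN45 DMSO arrays was the widest of the 4 groups. The change was -0.08 in AGS (interval -0.39 to 0.23, adjusted p = 0.665) and -0.14 in MKN45 (interval -0.45 to 0.17, adjusted p = 0.453), and with the median shift 0.12 and 0.21, none of them called. Probe ILMN_1782851 was well above background on 1 of 3 VP arrays of AGS and 2 of 3 of MKN45, and on 0 of 3 DMSO arrays in each. Probe ILMN_1773031 was so on 2 of 3 arrays in each AGS group and on 0 of 3 in each MKN45 group.

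NLRC5 was not well above background on any array (probe ILMN_1716704). Its deposited signals were 115.7, 134.9 and 128.9 in AGS with VP, against 95.94, 105.5 and 116.3 with DMSO, and 103.4, 128.3 and 124.9 in MKN45 with VP, against 96.35, 120.9 and 87.71 with DMSO. No level of the transactivator can be compared from them.

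The value table turned the picture round. By the brightest probe of each gene in it, all 7 members tested were lower with VP in AGS and 6 of 7 in MKN45, against 11.8% of all probes called lower in AGS and 8.91% in MKN45. In either direction 25.2% of all probes were called in AGS and 17.9% in MKN45. The brightest TAP2 probe was ILMN_1777565 in this table and ILMN_1759250 in the signals, so the TAP2 counts of the tables rest on different probes. The rows of this table are out of step with its names past row 21197, in the row order of the signals, so values past it were given to the probe of the next row. TAP1, TAP2, TAPBP and NLRC5 lie past it, in rows where TAP1, TAP2 and TAPBP follow each other, and the heavy chains and B2M lie before it. The median change of the members was -0.32 in AGS and -0.26 in MKN45, beside 0.025 and 0.014 over all probes in the same order. With the test that the methods name and the same adjustment, 2 members were lower in AGS and 2 in MKN45.

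**Figure D2:**
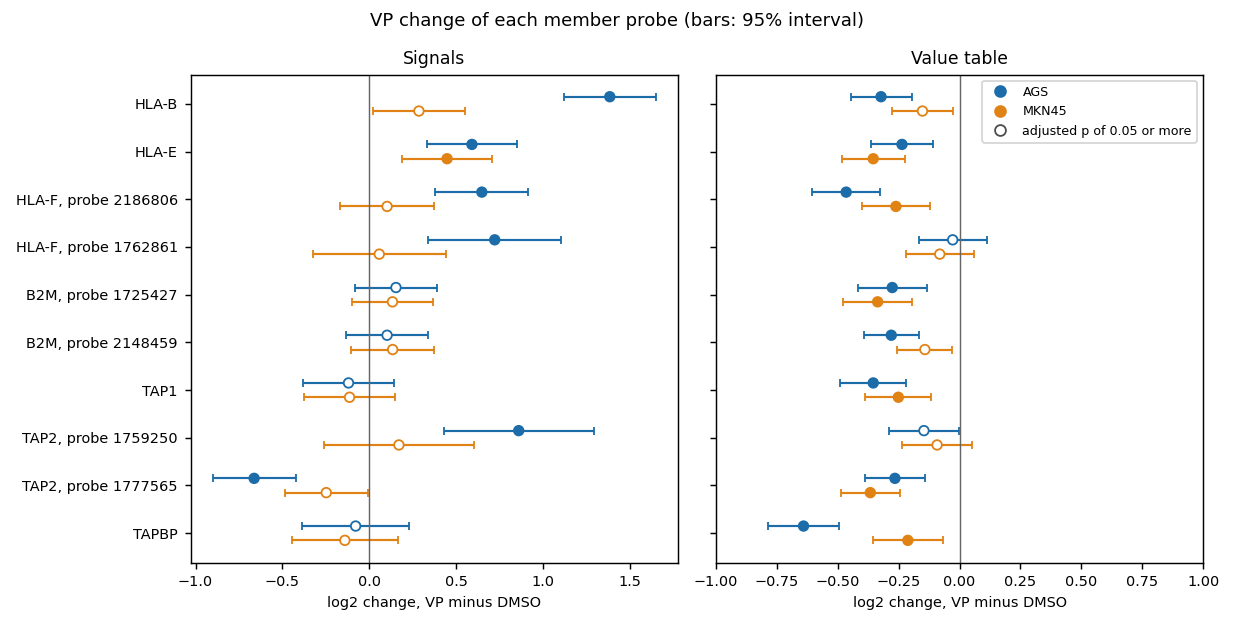
Log2 change (VP minus DMSO) of each member probe tested with its 95% interval, in AGS (blue) and MKN45 (orange), for the signals on the left and the value table on the right, whose horizontal scales differ. Filled points passed an adjusted p under 0.05. In the signals these are 5 AGS probes above 0 and 1 below, and 1 MKN45 probe (HLA-E) above 0. In the value table they are 8 AGS and 6 MKN45 probes, all of them below 0.

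The heavy chains turned direction between the tables. HLA-B in the value table had 7.67, 7.57 and 7.55 in AGS with VP, against 7.95, 7.98 and 7.82 with DMSO, a fall by 0.32 on the log2 scale (SE 0.06, adjusted p = 0.000368). In MKN45 it had 6.92, 6.95 and 6.83 with VP, against 7.11, 7.04 and 7.01 with DMSO, a difference of -0.15 (adjusted p = 0.0897). The arrays of VP and DMSO did not overlap in either line, as was so of 36.6% of all probes in AGS and 34% in MKN45. HLA-E fell by 0.24 (adjusted p = 0.00698) in AGS and by 0.35 (adjusted p = 0.000244) in MKN45, and the brighter HLA-F probe fell by 0.46 (adjusted p = 1.64e-05) and by 0.26 (adjusted p = 0.00881). The second HLA-F probe had changes of -0.03 (adjusted p = 0.805) and -0.08 (adjusted p = 0.478). The HLA-F call in MKN45 was lost without replicate 1 of MKN45 with VP (-0.23, adjusted p = 0.052) and without replicate 2 with DMSO (-0.19, adjusted p = 0.0766).

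HLA-C could be compared in the value table where its own background set the filter, a setting chosen after seeing the data. Probe ILMN_1721113 had 7.09, 7.06 and 7.22 in MKN45 with VP, against 7.36, 7.50 and 7.44 with DMSO, and was above that background on all 6 arrays. It was lower with VP by a log2 change of -0.31 (SE 0.06, adjusted p = 0.000902), where 8.84% of all probes tested so were called lower. In AGS it was above background on no array, with 6.65 ± 0.07 with VP and 6.58 ± 0.06 with DMSO. NLRC5 was above background on none of the 12 arrays in this table as well. The same filter also let in TAPBP probe ILMN_1773031, which was called in neither line and is given with TAPBP below.

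B2M, TAP1 and the TAPBP probe tested in the signals, none of which had passed there, were lower in the value table. The brighter B2M probe had 11.78, 11.91 and 11.71 in AGS with VP, against 12.08, 12.03 and 12.12 with DMSO, a fall by 0.28 (adjusted p = 0.00428). In MKN45 it had 11.81, 11.76 and 11.83 with VP, against 12.01, 12.12 and 12.28 with DMSO, a fall by 0.34 (adjusted p = 0.00107). No VP array reached a DMSO array in either line. The second B2M probe fell by 0.28 in AGS (adjusted p = 5e-04) and had -0.14 in MKN45 (adjusted p = 0.0766).

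TAP1 in the value table fell by 0.35 in AGS (adjusted p = 0.000281) and by 0.25 in MKN45 (adjusted p = 0.00896), the second of which was lost without replicate 1 of MKN45 with DMSO (-0.21, adjusted p = 0.0526). The TAP2 probe ILMN_1777565 fell by 0.27 in AGS (adjusted p = 0.00182), where 1 of 3 VP arrays was above background, and by 0.37 in MKN45 (adjusted p = 9.35e-05). The other TAP2 probe was at -0.15 (adjusted p = 0.129) in AGS, or -0.21 (adjusted p = 0.0476) without replicate 2 of AGS with VP, and at -0.09 (adjusted p = 0.422) in MKN45. Both tables thus gave a lower ILMN_1777565 with VP, the only probe called in the same direction by both in AGS.

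TAPBP probe ILMN_1742450 had the largest change of the 10 member probes in AGS in the value table. It had 8.12, 8.16 and 8.12 in AGS with VP, against 8.72, 8.96 and 8.64 with DMSO, a fall by 0.64 (SE 0.07, adjusted p = 2.42e-07). In MKN45 it had 8.45, 8.40 and 8.57 with VP, against 8.68, 8.71 and 8.67 with DMSO, a fall by 0.21 (adjusted p = 0.0373). The arrays did not overlap in either line. The MKN45 call was lost without replicate 1 or 2 with VP (-0.20 and -0.17, adjusted p = 0.112 and 0.15) and without replicate 1, 2 or 3 with DMSO (-0.21, -0.20 and -0.22, adjusted p = 0.0831, 0.107 and 0.0669). The fall was larger in AGS, by a difference of -0.43 (SE 0.10, adjusted p = 0.0078), where 8.93% of all probes passed the test. Of the 10 member probes it was the only one to pass in this table, and HLA-B had a difference of -0.17 (adjusted p = 0.248) there. TAPBP probe ILMN_1773031, tested only where the table's own background set the filter, did not share the fall. Its change was 0.064 in AGS (adjusted p = 0.45 in limma) and -0.115 in MKN45 (adjusted p = 0.168). It was above that background on all AGS arrays, and on 1 of 3 VP arrays of MKN45.

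**Figure D3:**
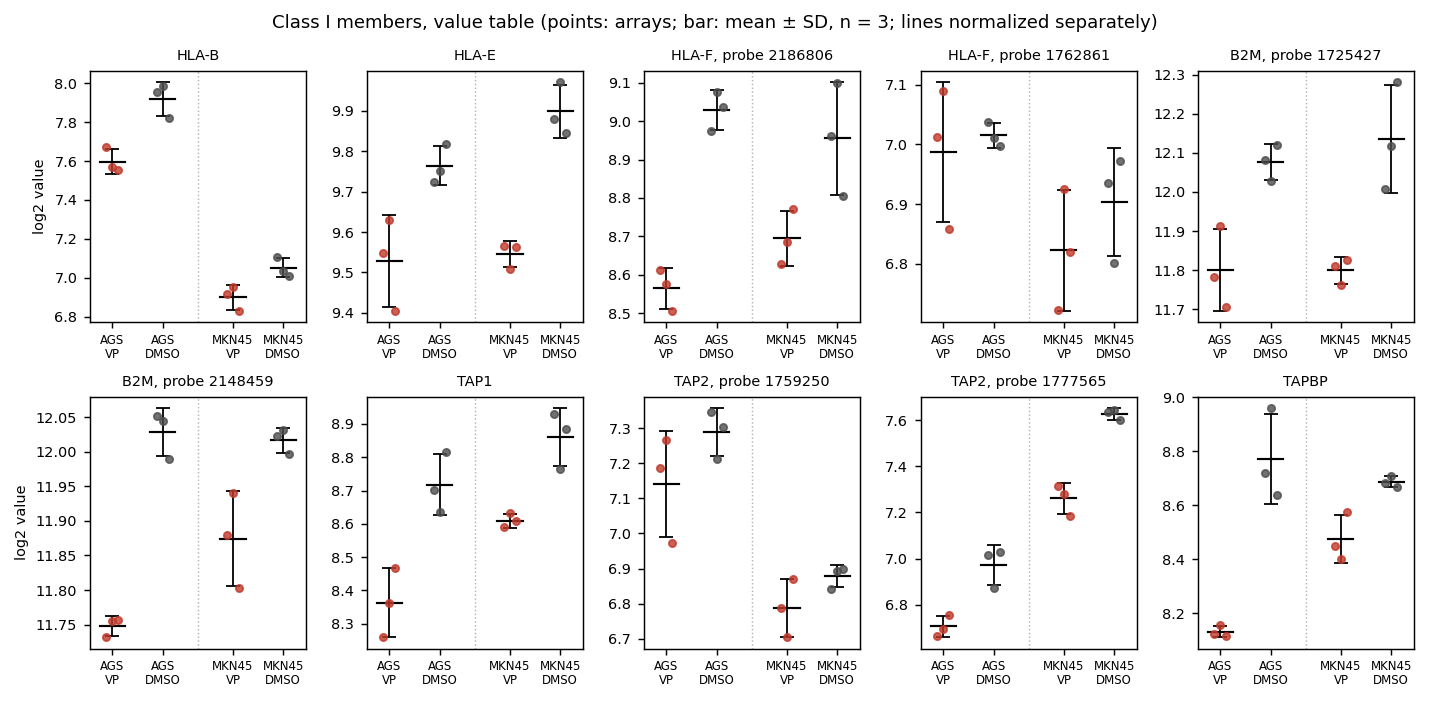
Log2 values of the same 10 probes in the value table (red: VP; grey: DMSO; points: arrays; bars: mean ± SD, n = 3), with a dotted line between AGS and MKN45, whose levels are not on one scale. TAPBP shows the widest gap in AGS, with means of 8.13 for VP and 8.77 for DMSO.

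The rest of the pathway was followed through 9 lists of 104 genes, of which 76 were tested. Their counts are read beside the 24.2% of all probes called higher and 27.5% called lower in AGS and the 21.1% and 20.9% in MKN45, and no list was tested against the other genes. Of 4 immunoproteasome genes tested, the interferon-induced form of the protein-cutting machine, 1 was lower in AGS and 3 in MKN45 in the signals. PSMB10, a catalytic subunit, fell by 1.18 in AGS (SE 0.10, adjusted p = 9.02e-07) and by 0.79 in MKN45 (adjusted p = 5.11e-05), and PSMB8, another, had -0.17 (adjusted p = 0.337) and fell by 0.49 (adjusted p = 0.0114). PSME3, the PA28 gamma activator of nuclear proteasomes, fell by 1.74 in AGS (SE 0.13, adjusted p = 3.85e-07) and by 0.97 in MKN45 (adjusted p = 9.89e-05), and PSMB5, a catalytic subunit of the constitutive form, fell by 0.32 (adjusted p = 0.0238) and had -0.09 (adjusted p = 0.532). They made 2 lower of 5 genes of the constitutive list in AGS and 1 in MKN45. Of 7 peptide-trimming peptidases 3 were lower in AGS and 1 in MKN45, with THOP1, a cytosolic peptidase, lower by a log2 change of -0.44 (adjusted p = 0.00225) and -0.52 (adjusted p = 0.00108), and TPP2, another, at -0.64 (adjusted p = 0.00239) and -0.21 (adjusted p = 0.274). By the value table, 2 immunoproteasome genes were higher in each line, with PSMB10 at 0.24 (adjusted p = 0.00579) in AGS and 0.46 (adjusted p = 9.02e-06) in MKN45. PSMB5 was higher there too, by 0.22 (adjusted p = 0.00839) and 0.21 (adjusted p = 0.0146), while THOP1 had 0.10 (adjusted p = 0.296) and -0.07 (adjusted p = 0.55). The fall of PSME3 was not called in the value table, with -0.07 (adjusted p = 0.415) in AGS and -0.15 (adjusted p = 0.0642) in MKN45.

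The list of folding and loading partners in the endoplasmic reticulum also holds the proteases SPPL2A and HM13. These were its only genes called higher in the signals, and the whole list fell in the value table. In the signals AGS had 1 of 8 higher and 3 lower, and MKN45 had 2 higher and 2 lower. HSPA5, the chaperone BiP, fell by 0.84 (SE 0.13, adjusted p = 0.000112) and by 0.80 (adjusted p = 0.000272) in AGS and MKN45, and CANX, the chaperone calnexin, which holds new heavy chains, fell by 0.37 (adjusted p = 0.0169) and by 0.34 (adjusted p = 0.0321). SPPL2A, a protease that cuts within membranes, rose by 0.53 in each line (adjusted p = 0.000428 and 0.000635), and HM13, the signal peptide peptidase that frees the peptides HLA-E shows, had 0.29 (adjusted p = 0.0997) in AGS and rose by 0.55 (adjusted p = 0.00749) in MKN45. All 8 were lower in each line of the value table, with medians of -0.77 in AGS and -0.50 in MKN45. CANX fell there by 0.77 (adjusted p = 2.96e-10) and by 0.93 (adjusted p = 3.59e-11), and SPPL2A, which had risen in the signals, fell by 0.77 (adjusted p = 2.55e-10) and by 0.43 (adjusted p = 4.19e-06).

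**Figure D4:**
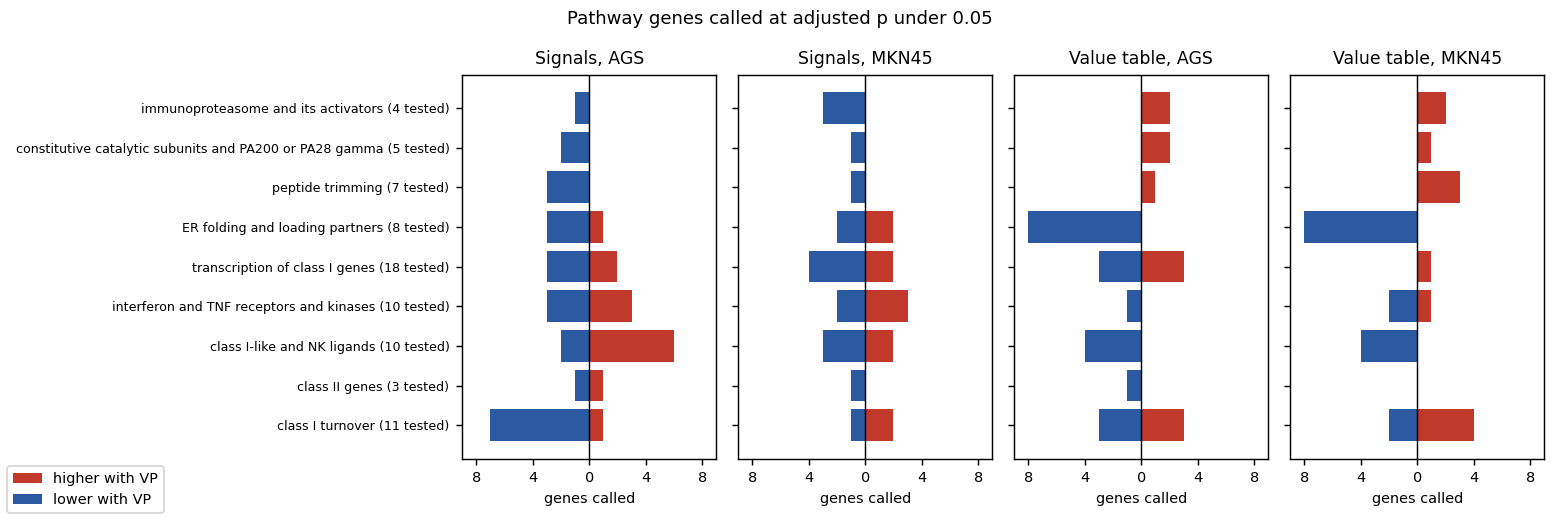
Number of genes of each pathway list called at an adjusted p under 0.05, to the right if higher and to the left if lower with VP, for each table and line, with the number tested beside the list's name. The list of folding and loading partners has 8 of 8 lower in both lines of the value table, against 3 and 2 of 8 in the signals.

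Among 18 factors that act on class I genes, AGS had 2 higher and 3 lower, and MKN45 had 2 higher and 4 lower. NFKB2, the p100 subunit of NF-kappaB, rose by 1.37 in AGS (SE 0.12, adjusted p = 1.49e-06) and by 0.57 in MKN45 (adjusted p = 0.00239), and NFKB1, the p105 subunit, fell by 0.58 (adjusted p = 0.000223) and by 0.55 (adjusted p = 0.000563). RFX5, the factor that binds the X box of class I and class II promoters, fell by 0.86 (SE 0.11, adjusted p = 3.19e-05) and by 0.45 (adjusted p = 0.00541). NFYC, a subunit of the factor that binds the CCAAT box, had 0.14 (adjusted p = 0.259) and rose by 0.31 (adjusted p = 0.0218). These 4 had no call in the value table apart from NFKB1 in MKN45 (0.19, adjusted p = 0.0236), where 3 of 18 were higher and 3 lower in AGS and 1 was higher in MKN45.

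The 10 receptors and kinases upstream held 3 higher and 3 lower genes in AGS, and 3 higher and 2 lower in MKN45. JAK1, the kinase of interferon receptors, rose by 0.84 in AGS (SE 0.20, adjusted p = 0.00327) and by 0.70 in MKN45 (adjusted p = 0.0121). Its partner JAK2 was well above background on all VP arrays and on no DMSO array, so it passed the filter by VP arrays alone. Its rise was by at least 0.61 on the log2 scale in MKN45, while in AGS the bound was 0.004. The measured differences were 0.82 in MKN45 (adjusted p = 0.000374) and 0.73 in AGS (adjusted p = 0.000509). A filter passed in this way favours a rise, so these p-values are no independent support. PTPN2, a phosphatase that acts against these kinases, fell by 0.60 (adjusted p = 0.00175) and by 0.38 (adjusted p = 0.0334). IFNAR1, a chain of the type I interferon receptor, fell by 0.46 in AGS (adjusted p = 0.0382), where 2 of 3 VP arrays were above background, and in MKN45, where no VP array was, by at least 0.50 on the log2 scale (adjusted p = 0.00407). JAK1 in the value table had -0.02 (adjusted p = 0.845) and 0.07 (adjusted p = 0.453), and JAK2 had -0.02 (adjusted p = 0.841) and -0.07 (adjusted p = 0.53). In that table AGS had 1 of the 10 lower and MKN45 1 higher and 2 lower. The higher 1 was PTPN2, with 0.26 (adjusted p = 0.00168) in MKN45 and 0.10 (adjusted p = 0.182) in AGS.

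The class I-like molecules and ligands of natural killer cells had 6 of 10 higher and 2 lower in AGS, and 2 higher and 3 lower in MKN45, in the signals. MR1, which shows vitamin B metabolites to MAIT cells, rose by 0.95 in AGS (SE 0.12, adjusted p = 2.51e-05) and by 1.195 in MKN45 (adjusted p = 6.6e-06), and NECTIN2, an adhesion molecule that natural killer cells read, rose by 0.85 (adjusted p = 0.000471) and by 0.44 (adjusted p = 0.0352). MICB and MICA, stress ligands of the receptor NKG2D, fell: MICB by 0.83 (adjusted p = 4.41e-05) and by 0.88 (adjusted p = 4.8e-05), and MICA by 0.53 (adjusted p = 0.0213) and by 0.59 (adjusted p = 0.0162). ULBP2, another ligand of NKG2D, named after its values were seen, rose by 1.30 in AGS (adjusted p = 1.65e-05), the largest rise of the list there, and had -0.19 in MKN45 (adjusted p = 0.354). In the value table it had 0.09 (adjusted p = 0.288) and -0.09 (adjusted p = 0.304). By the value table, 4 of 10 were lower in each line, NECTIN2 among them with -0.39 (adjusted p = 0.000169) and -0.23 (adjusted p = 0.0247). MR1 had no call there, with -0.10 (adjusted p = 0.224) in AGS and -0.09 (adjusted p = 0.345) in MKN45, where no array was above background. MICB and MICA were lower by both tables in MKN45, with value table changes of -0.35 (adjusted p = 6.88e-05) and -0.17 (adjusted p = 0.0454).

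Of 12 class II genes 3 were tested, and of these HLA-DRA, an alpha chain, rose by 0.30 in AGS (adjusted p = 0.0388) and HLA-DMA, which edits class II peptides, fell by 0.35 (adjusted p = 0.0409) and by 0.44 in MKN45 (adjusted p = 0.0173). The value table turned HLA-DRA, with -0.34 (adjusted p = 0.000105) in AGS and -0.15 (adjusted p = 0.0801) in MKN45, and had HLA-DMA at -0.09 (adjusted p = 0.291) and -0.14 (adjusted p = 0.115). The 11 genes of class I turnover had 1 higher and 7 lower in AGS, and 2 higher and 1 lower in MKN45. VCP, the ATPase that pulls misfolded chains out of the endoplasmic reticulum, fell by 0.99 in AGS (SE 0.14, adjusted p = 5.71e-05) and had -0.17 in MKN45 (adjusted p = 0.349), and SYVN1, the ubiquitin ligase HRD1, rose by 0.38 (adjusted p = 0.0171) and by 0.71 (adjusted p = 0.000439). UBE2J2, a ubiquitin-conjugating enzyme of that membrane, fell by 0.71 in AGS (adjusted p = 0.00171) and had -0.40 in MKN45 (adjusted p = 0.0532), and SND1, a nuclease that binds RNA, had 0.20 (adjusted p = 0.229) and rose by 0.47 (adjusted p = 0.0128). VCP in the value table rose by 0.27 (adjusted p = 0.00424) and by 0.20 (adjusted p = 0.0372), where 3 of 11 were higher and 3 lower in AGS, and 4 higher and 2 lower in MKN45. SYVN1 had -0.25 (adjusted p = 0.0103) and -0.19 (adjusted p = 0.0651) there, against its rise in the signals, and SND1 rose by 0.24 (adjusted p = 0.00782) and by 0.34 (adjusted p = 0.000701).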

How the data were processed

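RNA of AGS and MKN45 cells was hybridised to 12 arrays, and each column was given its sample by name. The authors deposited linear signal intensities with a detection p-value per probe (GenomeStudio by the submitters' notes, version and any background subtraction not given in the sources used here) and a value table on the log2 scale that they quantile normalized for each line alone, as its sorted values showed (they differ by 0.001 within a line). Its 1 row of linear signals was left out.

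Signals were background corrected by normexp from the detection p-values (offset 16), quantile normalized and log2 transformed in limma (version 3.58.1, R version 4.3.3). The filter kept 16021 of 47323 probes, those detected at 0.01 on every array of at least 1 group. They were fitted with 4 group means. Probes were called at an adjusted p under 0.05 (Benjamini-Hochberg over all probes tested). The same fit was run on the value table, within lines. A probe is not well above background at a detection p-value of 0.01 or more, and in the value table by the array's mode and the spread of lower values. The platform annotation gave 1 symbol to 30113 probes, several to 8 and none to 17202. Every member probe is reported. From each list the 2 genes with the largest rise and the 2 with the largest fall, by the mean change of both lines in the signals, are named if called in a line, and further genes appear where their change differed between lines. Alternatives were the value table, other scalings and background settings, 1 probe per gene, the replicate block, other tests and leaving out each array. The fits were tested on simulated data. Members, lists and tests were chosen with earlier results of these data known. 1 item of the marker lists is not reported here. Promoter windows were searched with Python.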

Additional observations from a re-analysis of the deposited data

Results flagged for a closer look

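The VP change differed between the lines by limma's interaction test for 7 genes in the signals and for 6 in the value table, among the members and all genes of the pathway lists. In the signals HLA-B had a difference (AGS minus MKN45) of 1.098 on the log2 scale (adjusted p = 0.00289), from 1.38 in AGS and 0.28 in MKN45. ULBP2 had a difference of 1.483 (adjusted p = 0.00173), and NFKB2 of 0.799 (adjusted p = 0.0154), with a rise of NFKB2 in both lines. CD47, the surface signal that holds back macrophages, had a difference of 0.757 (adjusted p = 0.00829), with 0.33 in AGS and -0.43 in MKN45, both called. PSME3 had a difference of -0.772 (adjusted p = 0.0256), from -1.74 in AGS and -0.97 in MKN45. VCP had a difference of -0.819 (adjusted p = 0.0223), and UGGT1, which senses misfolded glycoproteins, of -0.883 (adjusted p = 0.0373), with -0.53 in AGS and 0.35 in MKN45.

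By the value table, TAPBP had a difference of -0.428 (adjusted p = 0.0078), from -0.64 in AGS and -0.21 in MKN45. UGGT1 had -0.313 (adjusted p = 0.0253) and SPPL2A -0.336 (adjusted p = 0.00755), both lower with VP in each line. IFNGR1, a chain of the interferon gamma receptor, had a difference of -0.329 (adjusted p = 0.0216), with -0.81 in AGS and -0.48 in MKN45. IFNAR1 had a difference of 0.305 (adjusted p = 0.0267), with -0.07 in AGS and -0.37 in MKN45, and MICB of 0.424 (adjusted p = 0.00123), with 0.07 in AGS and -0.35 in MKN45. Of all probes, 9.04% passed in the signals and 8.93% passed in the value table. A cause was not tested for any of them.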

How the results depend on the processing

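The direction of the heavy chains, B2M and the brighter TAP2 probe turned with the table used, and that of TAP1, TAPBP and the second TAP2 probe did not. With the value table in place of the signals, 0 members were called higher and 7 lower in AGS, and 0 and 6 in MKN45, with 2147 probes called higher and 1892 lower in AGS and 1439 and 1428 in MKN45. TAP2 counts there by its second probe. The changes turned to -0.322 (HLA-B), -0.236 (HLA-E), -0.465 and -0.028 (HLA-F), -0.276 and -0.28 (B2M) and -0.146 (TAP2, brighter probe) in AGS, and to -0.152, -0.354, -0.261, -0.081, -0.336, -0.142 and -0.092 in MKN45. The differences between lines turned to -0.17 (HLA-B), -0.204 (HLA-F), -0.054 and 0.101 (TAP2) and -0.428 (TAPBP). With its rows named as deposited, 0 members were higher and 5 lower in AGS and 0 and 4 in MKN45, with 1638 and 1496 probes in AGS and 1076 and 1140 in MKN45, and the value under TAPBP was 0.064 and under the brighter TAP2 probe -0.265 in AGS and -0.366 in MKN45, which are the values of other probes by 1 row. The cause of the difference between the tables was not tested.

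Within the signals the AGS count of 4 members higher held under each alternative run on them. In MKN45 it was 3 with a median shift (HLA-B 0.62, adjusted p = 0.00918, and TAP2 0.50, adjusted p = 0.0367). It was 2 with no background correction, with the replicate block and with a plain t-test, where HLA-B had adjusted p-values of 0.0396, 0.0456 and 0.0384. Whether replicate numbers pair the arrays could not be decided, since differently numbered arrays were not compared. The deviations of same-numbered arrays correlated at -0.107, 0.179 and -0.045 in AGS and 0.211, 0.003 and -0.029 in MKN45. The block changed no other count of members. The median shift gave 1818 probes lower in AGS and 897 in MKN45, and turned uncalled changes to 0.087 (TAP1) and 0.122 (TAPBP) in AGS, 0.222 (TAP1), 0.024 (TAP2, second probe) and 0.207 (TAPBP) in MKN45, -0.014 (HLA-E), -0.115 (B2M) and -0.084 (TAPBP) in the difference of changes, and -0.06 (TAPBP) under DMSO. Over genes in place of probes, 2553 were higher and 2913 lower in AGS and 2225 higher in MKN45. The plain t-test gave 2078 probes lower in MKN45 and lost the second HLA-F probe in AGS (adjusted p = 0.0921). In the value table it left 2 members lower in each line, with 530 probes higher and 1006 lower in AGS and 491 and 713 in MKN45.

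With each array left out in turn, the VP changes called in the signals stayed called. The counts of members lower in the value table were 7 in AGS and 4 to 6 in MKN45, and the probes called higher in its MKN45 arrays were 946 to 1155. Uncalled values changed sign, with ranges in the signals of -0.151 to 0.017 (TAPBP) in AGS, -0.044 to 0.176 (HLA-F, second probe), -0.038 to 0.365 (TAP2) and -0.302 to 0.004 (TAPBP) in MKN45, -0.055 to 0.103 and -0.097 to 0.042 (B2M), -0.12 to 0.095 (TAP1) and -0.084 to 0.222 (TAPBP) in the difference of changes, and -0.083 to 0.094 (HLA-E) and -0.066 to 0.24 (TAPBP) under DMSO. In the value table they were -0.079 to 0.036 (HLA-F, second probe) in AGS and -0.013 to 0.124 (B2M) and -0.117 to 0.029 (TAP2) in the difference. Signals at the background limit HLA-C, NLRC5 and 2 TAPBP probes.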
